A study of Mus musculus with 3 samples.

Results

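Cycling cells of mouse islets were described by the hormone RNA that they carried. A cell counted as cycling when at least 3 of the 6 cell cycle genes Top2a, Mki67, Cenpf, Cdk1, Birc5 and Hmmr each had at least 1 unique molecular identifier, or UMI, a tag that lets each RNA molecule be counted once. This gave 79 of 12308 kept cells. Of these, 29 had at least 3000 UMIs of Ins1 and Ins2 per 10000 UMIs of the cell and formed the insulin class, also where another hormone was high. A further 14 had at least 200 UMIs per 10000 of Gcg, Sst or Ppy, the genes of glucagon, somatostatin and pancreatic polypeptide, and formed the other-hormone class. The remaining 36 passed neither limit. Cells under 500 genes or 1000 UMIs, or with over 20% of their UMIs from mitochondrial genes, were not kept. The members were chosen by the measured UMIs of these 6 genes and of the hormones, so their cell cycle and hormone genes are described and not tested.

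All cells came from islets of mice that carried Ngn3-CreERT and R26-CAG-TdTomato, taken 10 days after tamoxifen. Ngn3 is Neurog3, the transcription factor that starts endocrine differentiation in the embryonic pancreas, and in this line it drives a tamoxifen-dependent Cre, so cells in which Neurog3 is active during treatment, and their progeny, are marked by TdTomato. The 6 mice of the series gave 3 samples of 1 group: replicate 1, and replicates 2 and 3 with 2 pooled mice each, deposited together in a joint table. Cre-negative or tamoxifen-free mice were not analysed here, and sex and age were not given in the sources used here. Islets were freed with collagenase on a density gradient, dissociated, and loaded at about 10000 cells per channel for 3′ single-cell RNA sequencing.

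The table of replicate 1 held 1146 cells and 27474046 UMIs, and the joint one, once 3008 copied columns were dropped, 13042 cells and 196833349 UMIs. After the cell filter 859 and 11449 cells remained. The barcodes of the joint table fell into 3 blocks that no label ties to a sample, so the blocks are shown side by side and are not replicates, and the joint table counts as 1 sample. Replicate 1 and the blocks shared between 0 and 6 barcodes per pair. Replicate 1 held 8 of the 79 cycling cells, too few per class for a test across samples. Every difference is therefore a value without a test, with exact 95% intervals that cover counting error only.

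A dividing cell copies its DNA in S phase and separates the copies in mitosis after G2. Cyclin D with Cdk4 or Cdk6 carries a cell out of G1, cyclin E opens S phase, and cyclins A and B with Cdk1 bring on mitosis. Cyclin-dependent kinase inhibitors of the Ink4 and Cip/Kip families restrain these steps. Adult islet endocrine cells divide rarely, and in mice Ccnd2 and Cdk4 are known to be needed for the growth of the beta cell pool after birth.

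Of the 6 genes that defined the cells, Top2a untangles replicated DNA, Mki67 coats mitotic chromosomes, and Cenpf and Birc5 act at the kinetochore and the centromere. Cdk1 is the mitotic kinase, and Hmmr acts on the mitotic spindle. Promoters of such genes are known to carry a cell cycle homology region, CHR, of the letters TTTGAA, and upstream CCAAT boxes. RefSeq promoter windows (GRCm38.p6, 250 bases before and 50 after the start) of Top2a, of Cdk1 and of Birc5 are shown because they hold several matches, fewer matches and none. They lie on the minus strand at chr11:99024140-99024439 and chr10:69352863-69353162, and on the plus strand at chr11:117848987-117849286. Capitals mark TTTGAA and CCAAT on either strand, so TTCAAA and ATTGG are the reverse complements.
Top2a: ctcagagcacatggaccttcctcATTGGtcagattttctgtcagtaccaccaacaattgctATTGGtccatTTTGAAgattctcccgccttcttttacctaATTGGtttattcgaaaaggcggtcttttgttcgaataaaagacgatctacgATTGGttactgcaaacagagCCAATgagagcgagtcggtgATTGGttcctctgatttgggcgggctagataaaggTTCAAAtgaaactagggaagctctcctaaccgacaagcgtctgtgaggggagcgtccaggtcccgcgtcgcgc
Cdk1: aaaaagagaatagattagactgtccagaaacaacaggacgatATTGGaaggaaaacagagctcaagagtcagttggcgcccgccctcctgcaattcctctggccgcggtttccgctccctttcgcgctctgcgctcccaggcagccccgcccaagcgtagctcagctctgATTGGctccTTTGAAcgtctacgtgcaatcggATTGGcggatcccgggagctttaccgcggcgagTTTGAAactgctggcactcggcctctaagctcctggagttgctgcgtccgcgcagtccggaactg
Birc5: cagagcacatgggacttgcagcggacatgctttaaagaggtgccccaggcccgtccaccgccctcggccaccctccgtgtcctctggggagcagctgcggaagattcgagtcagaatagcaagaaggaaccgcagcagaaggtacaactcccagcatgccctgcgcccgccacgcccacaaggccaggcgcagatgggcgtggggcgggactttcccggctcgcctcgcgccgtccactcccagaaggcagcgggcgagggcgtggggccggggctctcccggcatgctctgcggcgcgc
The window of Top2a held 2 CHR and 6 CCAAT matches, that of Cdk1 held 2 and 3, and that of Birc5 held 0 of either. Both motifs occurred in 5 of the 6 defining genes and in 7.97% of 27025 genes with a window. Of 46 G2/M genes with a window, 33 (71.7%) had TTTGAA and 37 (80.4%) had CCAAT, against 20.2% and 41.1% of all genes. Of 34 S phase genes, 6 (17.6%) had TTTGAA and 23 (67.6%) had CCAAT. Of 15 genes of mature beta cells, 2 (13.3%) had TTTGAA and 5 (33.3%) had CCAAT. The G2/M genes thus held both motifs more often than the set of all genes, and the S phase genes held CCAAT but not TTTGAA more often. A match describes letters and not a bound site.

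Cycling cells were a small part of both hormone classes and a larger part of the cells without hormone. In the insulin class 29 of 8104 cells were cycling (0.358%, interval 0.24% to 0.514%). The share was 0.412% in replicate 1 (2 cells) and 0.352%, 0.411% and 0.319% in blocks 1 to 3 (12, 7 and 8 cells). In the other-hormone class 14 of 2439 cells were cycling (0.574%, interval 0.314% to 0.961%), with 0.433% in replicate 1 and 0.463%, 0.81% and 0.631% in the blocks. The intervals of the hormone classes overlapped, and the share of the other-hormone class was the higher one in each block and in replicate 1, where it rests on 1 cell against 2. This difference was not tested. Among cells without hormone, 36 of 1765 were cycling (2.04%, interval 1.43% to 2.81%), with 3.52% in replicate 1 and 1.95%, 1.96% and 1.81% in the blocks. In replicate 1 and in each block this share lay above those of both hormone classes.

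**Figure D1:**
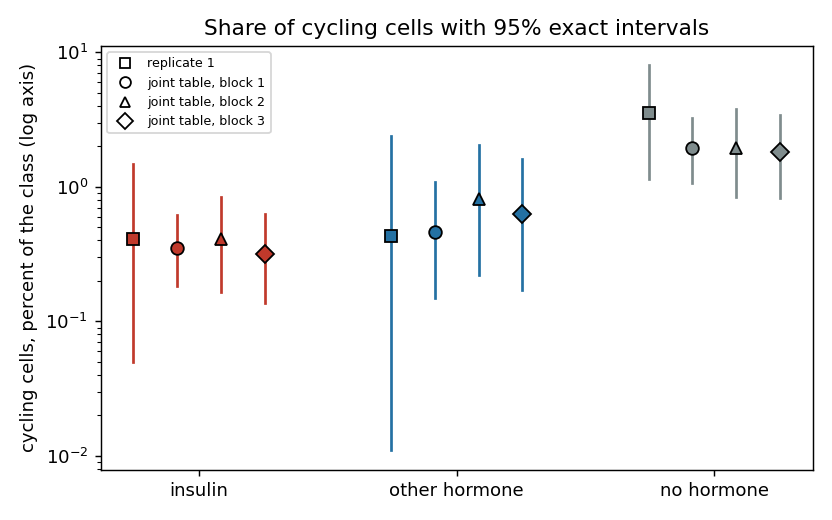
Share of cycling cells in each hormone class, in percent on a log axis, for replicate 1 and for each barcode block. Bars are exact 95% intervals for counting error. The class without hormone lies highest in replicate 1 and in each block, and the intervals of the insulin and other-hormone classes overlap each time.

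Depth differed between these cells and their classes. The median count of UMIs outside Ins1, Ins2, Gcg, Sst and Ppy was 12184 in cycling cells and 7018 in all cells of the insulin class, 13084 and 5401 in the other-hormone class, and 7332 and 2569 in cells without hormone. Deep cells meet a rule of detected genes more often, so each cell was also thinned to 2000 such UMIs, which left out 275, 153 and 580 shallower cells. The thinned shares were 15 of 7829 (0.192%, interval 0.107% to 0.316%), 6 of 2286 (0.262%, 0.0964% to 0.57%) and 21 of 1185 (1.77%, 1.1% to 2.7%). The order of the classes was the same as before thinning.

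Within the other-hormone class, the hormone with the most UMIs was Sst in 8 cycling cells, Gcg in 4 and Ppy in 2. Of cells led by Sst, the delta cell hormone, 8 of 602 were cycling (1.33%, interval 0.575% to 2.6%). Among these 8, 1 cell of block 3 carried 108 UMIs of macrophage markers, so its type is less sure. Of cells led by Gcg, the alpha cell hormone, 4 of 1372 were cycling (0.292%, 0.0795% to 0.745%), and of cells led by Ppy 2 of 465 (0.43%, 0.0521% to 1.54%). After thinning, the counts were 4 of 546, 2 of 1294 and 0 of 446. The intervals of the 3 hormones overlapped at both depths, and the difference between Sst-led and other cells was not tested.

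The cells near the rule's edge were few. No gene of the 6 was seen in 11979 kept cells, 1 gene in 232 cells and 2 genes in 18, just outside the rule. Just inside it, 13 cells had 3 genes, with a median of 6 UMIs of the 6 genes, against 3 UMIs in the cells with 2 genes. All 6 genes were seen in 36 cells, 16 of the insulin class, 9 of the other-hormone class and 11 without hormone, with a median of 37 UMIs. A second set that the rule did not use (Ube2c, Ccna2, Tpx2, Nusap1, Prc1 and Cdca8, most of them genes of mitosis) had at least 3 genes above 0 in 67 of the 79 cells (84.8%) and in 3 of 12229 other cells (0.0245%). By class these were 24 of 29, 12 of 14 and 31 of 36 cells. Of the 13 cells just inside the rule, 6 met the second set.

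The hormone limits that set the classes also bound the hormone levels of their cells, so these levels are a description. Cycling cells of the insulin class had between 3154 and 7711 UMIs of Ins1 and Ins2 per 10000, with a median of 6278, and the 271 non-cycling cells matched to them in class, block and non-hormone depth had a median of 6351. Both medians lay within the range of the other group. More than the limit of a second hormone was present in 5 of the 29 cells (17.2%, interval 5.85% to 35.8%), against 33 of 271 matched cells (12.2%) and 439 of 8075 non-cycling cells of the class (5.44%). The lowest insulin value of the class, 3154, belonged to a cell of block 2 with 927 UMIs of Gcg per 10000. None of the 29 was among the cells with the highest doublet scores.

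**Figure D2:**
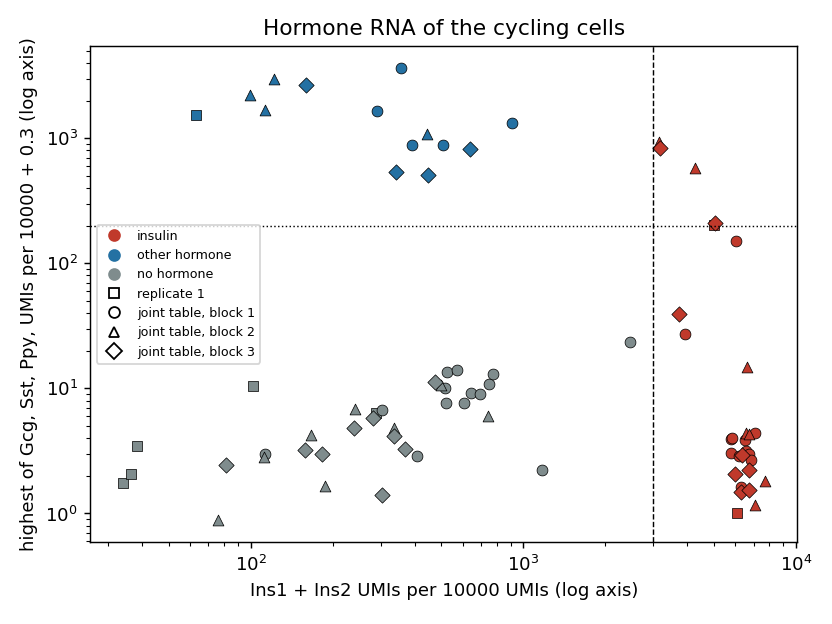
Ins1 and Ins2 UMIs per 10000 UMIs against the highest of Gcg, Sst and Ppy for each of the 79 cycling cells, both on log axes; dashed lines are the limits of 3000 and 200. Cells past both limits number 5, and the cells of the class without hormone lie under both lines.

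In the other-hormone class the Sst-led cells carried from 509 to 1524 UMIs of Sst per 10000, with a median of 883 against 1160 in the 18 Sst-led cells matched in class and depth. The Gcg-led cells carried from 1652 to 2959 UMIs of Gcg. The 2 Ppy-led cells had 2229 and 3616 UMIs of Ppy per 10000. A second hormone of the 3 reached 200 in 8 of 14 cells (57.1%, interval 28.9% to 82.3%), in 6 of these 8 as Sst with Ppy. Among all non-cycling cells of the class the count was 861 of 2425 (35.5%), at a median of 8295 UMIs per cell against 17481. Among those matched in class and depth it was 20 of 56 Gcg-led, 8 of 18 Sst-led and 31 of 56 Ppy-led cells. With the match also on leading hormone, chosen after the data were seen, it was 70 of 125 (56.0%). None of the 14 was among the highest doublet scores, but their median score of 0.0672 was above those of non-cycling cells. These were 0.0399 in the 125 cells matched also on leading hormone and 0.0246 in all non-cycling cells of the class. The part of doublets in the second hormone was not tested.

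The phase of the cycling cells was read from lists of 46 S phase and 53 G2/M genes that leave out the 6 defining genes. The level of a list is its summed UMIs per 10000 non-hormone UMIs. In the insulin class the median S level was 30.2 in cycling and 4.36 in matched cells, and the median G2/M level 84.4 against 9.92. In the other-hormone class these were 46.5 against 5.30 for S and 82.2 against 8.32 for G2/M, and without hormone 31.2 against 6.15 and 103 against 9.34. The S level exceeded the G2/M level in 7 of 29, 5 of 14 and 5 of 36 cycling cells and in 19 of 271, 23 of 130 and 54 of 201 matched cells. The lists differ in size and basal level, so equal levels do not mark a boundary between phases. As background, the 6 defining genes are known to peak in G2 and mitosis.

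**Figure D3:**
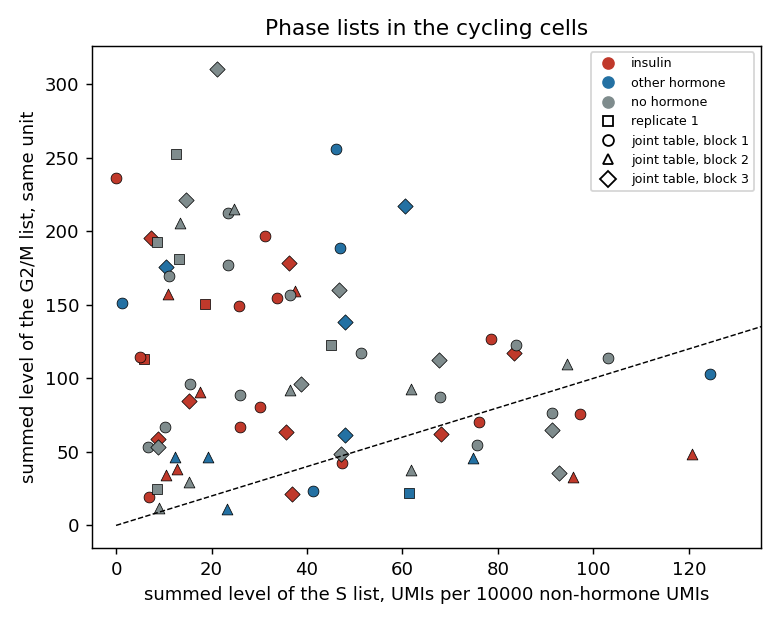
Summed level of the S phase list against that of the G2/M list for each cycling cell, in UMIs per 10000 non-hormone UMIs, coloured by class; the dashed line marks equal levels. Most cells lie above the line, and 7 insulin, 5 other-hormone and 5 cells of the class without hormone lie below it.

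In the insulin class, genes of mitosis, replication and chromatin were higher in the cycling cells, cell cycle inhibitors of the Ink4 family were higher with them, and several genes of mature beta cells were lower. The 27 cycling cells of the joint table were set against 251 matched cells, with median non-hormone depths of 12129 and 11925 UMIs. Levels are UMIs per 10000 non-hormone UMIs summed over cells, and differences are of log2(level + 0.05), so that they understate the change of low genes, with each side centred on its median gene. A difference of at least 1 was seen as higher in 659 of 9759 genes with a level of at least 0.1 on 1 side (6.75%) and as lower in 561 (5.75%). The median difference over these genes was -0.08. Centring lowered all differences by 0.080. Values per block and in replicate 1 are levels, not centred.

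Of 52 measured G2/M genes 51 were higher by at least 1, with a median difference of 3.54, and none was lower. The median was 4.34 when the 19 genes at 0 on 1 side were set at 3 counts. Ube2c, which targets mitotic cyclins for destruction, had 179 UMIs in 19 of 27 cycling cells and 0 UMIs in 251 matched cells. Cenpa, the centromere histone, was at a level of 2.66 in cycling and 0.00329 in matched cells. Of 45 S phase genes 42 were higher, with a median of 2.61, among them Hells, a chromatin remodeller (1.23 against 0.0131), and Atad2 (2.30 against 0.115). These lists move with the rule that chose the cells and are a description of them.

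Chromatin and cytoskeleton genes followed, with 13 of 14 higher by at least 1 and all 14 higher in every block. Stmn1, which destabilises microtubules, was at 9.36 (interval 8.38 to 10.4) in cycling and 0.0624 in matched cells, a log2 difference of 6.31. It was at 11.7, 7.44 and 8.39 in the cycling cells of blocks 1 to 3, against at most 0.107 in matched cells, and at 16.1 against 0.0374 in replicate 1. The cycling side was far higher in each block and in replicate 1. Hmgb2, a DNA-bending protein, was at 8.35 against 0.397, and H2afz, a histone variant, at 27.7 against 4.55. Outside the lists the largest differences included Pbk, a mitotic kinase, with 133 UMIs in 26 of 27 cycling cells and 1 UMI in matched cells. Lockd, a long non-coding RNA gene next to Cdkn1b at chr6:134929092-134956798, was at 4.29 against 0.0329 and was seen in 25 of 27 cycling cells. Cenpw, a kinetochore gene, was at 2.38 against 0.0361. Histone, tubulin, Hspa1 and insulin genes have near-identical copies, so reads of one copy may be counted under another.

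The cyclins differed by their place in the cycle. Ccnb1, the mitotic cyclin B, had 38 UMIs in 15 cycling cells and none in matched cells, and Ccne2, a cyclin E, was at 0.728 against 0.0723. Ccnd2, the main D-type cyclin of beta cells, was lower, at 9.61 (interval 8.62 to 10.7) in cycling and 16.99 (16.5 to 17.5) in matched cells, a log2 difference of -0.90. Its level was 9.07 against 17.6 in block 1, 10.3 against 17.5 in block 2, 9.65 against 15.7 in block 3 and 6.35 against 13.01 in replicate 1. The cycling side was thus lower each time, although the difference stayed under the limit of 1. Ccnd1 was at 2.05 against 2.13, with overlapping intervals. Cdk4 was seen in 21 of 27 cycling cells, at 1.4 against 0.811. Of 10 measured cyclins and kinases 6 were higher by at least 1 and none was lower. Of 11 regulators of cycle transcription 8 were higher, for example E2f1 at 0.560 against 0.118.

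Several inhibitors of cyclin-dependent kinases were higher. Of 6 measured, 4 were higher by at least 1 and none was lower, with a median of 1.47. Cdkn2c (p18, an Ink4 inhibitor of Cdk4 and Cdk6, at chr4:109660876-109667189) was at 2.27 (interval 1.80 to 2.82) in cycling and 0.145 (0.105 to 0.194) in matched cells, a difference of 3.50. It was at 1.83, 1.83 and 3.06 against 0.0879, 0.257 and 0.117 in blocks 1 to 3, and at 3.74 against 0.187 in replicate 1. Cdkn2c was seen in 20 of 27 cycling cells and in 38 of 251 matched cells. Cdkn2d, the p19 member of the same family, was at 1.88 against 0.187. Cdkn1a, which encodes p21, was at 1.32 against 0.578, a difference of 1.04 that became 0.51 without block 1. Cdkn1b, which encodes p27, was at 1.18 against 0.792. The other targets of p53 did not share the position of Cdkn1a: of 11 measured p53 targets it was the 1 that was higher by at least 1, and the list median was -0.14.

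Genes of mature beta cells were lower on the whole. Of 23 measured, 22 had a difference under 0 and 16 were lower in all 3 blocks, 5 were lower by at least 1 and none was higher by 1, and the median was -0.54 beside -0.08 for all genes. Markers shared by all endocrine cells, such as Chga and Scg2, lay on the same side: all 8 had a difference under 0 and 5 were lower in all 3 blocks, none by 1, with a median of -0.35. Other lists of this class had medians of -0.58 (receptors of growth signals), -0.55 (immediate early and heat shock), -0.23 (unfolded protein response) and -0.14 (p53 targets). In the class without hormone the maturity list had a median of -0.76, with 17 of 18 measured genes under 0 and 6 lower by 1. Whether the maturity genes differ from the endocrine markers or from these lists was not tested. Slc2a2, the glucose transporter of mouse beta cells, was at 3.53 (interval 2.94 to 4.2) in cycling and 8.06 (7.74 to 8.38) in matched cells, a difference of -1.26. It was at 3.58 against 8.33, 2.24 against 8.05 and 4.47 against 7.70 in the blocks and at 5.98 against 7.68 in replicate 1. The cycling side was lower each time, least so in replicate 1.

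G6pc2, the islet glucose-6-phosphatase, was at 5.41 against 12.0, and at 2.05 against 12.1 in replicate 1. Glp1r, the receptor of the incretin GLP-1, was at 3.92 against 8.14 in the joint table and at 0.187 on both sides in replicate 1, where the gene was near 0 in all cells. Cox6a2 (0.785 against 2.10) and Rasd1 (0.616 against 1.45) completed the 5. The maturity factors Mafa (6.98 against 12.0) and Ucn3 (2.75 against 4.62) were lower by less than 1. Pdx1, a beta cell transcription factor, was at 1.65 against 1.76 with overlapping intervals, and Iapp at 812 against 868. Pcsk1, a proinsulin convertase, was the 1 gene of the list with a higher level, 6.00 against 4.54. Mature beta cell genes were therefore not lower to the same degree. With cells past both hormone limits left out, the differences of Slc2a2, G6pc2 and Glp1r stayed past 1.

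**Figure D4:**
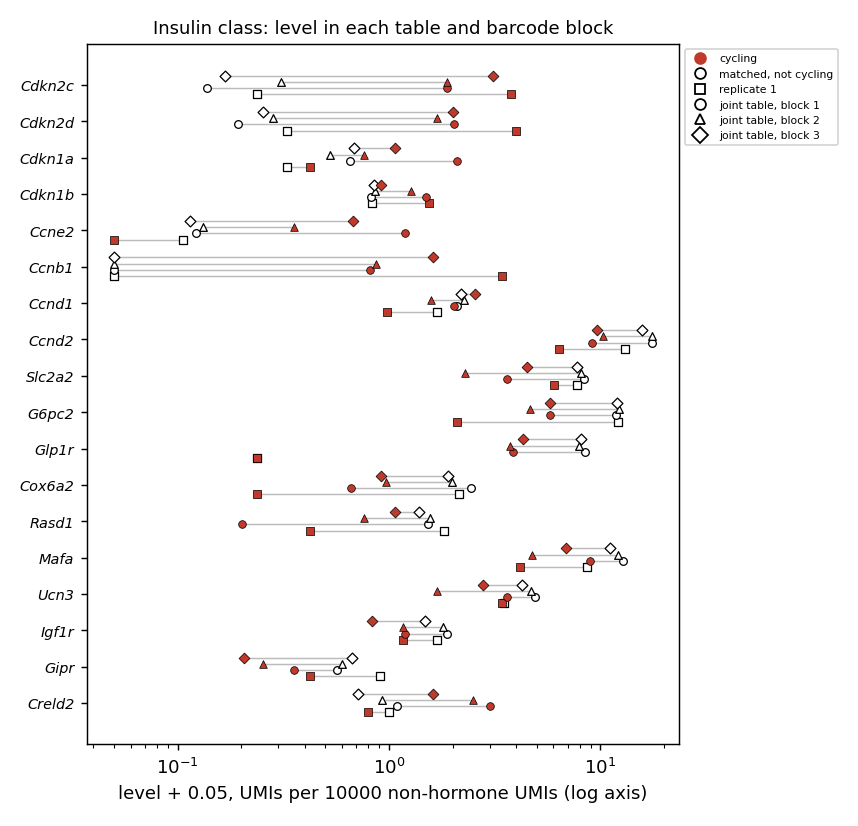
Levels of named genes in cycling and matched non-cycling cells of the insulin class, as UMIs per 10000 non-hormone UMIs plus 0.05 on a log axis, for each barcode block and for replicate 1. Cdkn2c lies higher in the cycling cells of every block, and Ccnd2, Slc2a2 and G6pc2 lie lower.

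Receptors of growth signals were not higher. Of 10 measured, none was higher by 1 and 2, Gipr and Glp1r, were lower by 1. Igf1r, the receptor of insulin-like growth factor, was at 1.01 against 1.69, and the list median was -0.58. Of 13 genes of the unfolded protein response, 1 was higher by 1, Creld2, an endoplasmic reticulum chaperone, at 2.33 (interval 1.85 to 2.88) against 0.877 (0.775 to 0.989), and 1 was lower by 1, Trib3, named after its values were seen. Creld2 was higher in each block, and in the 2 cells of replicate 1 it was at 0.747 against 0.953. Of 11 immediate early and heat shock genes none was higher by 1, and Hspa1a (0.925 against 2.37) and Hspa1b (0.588 against 1.42) were lower. Fos was at 14.4 against 14.1. The progenitor and immaturity list had 1 of 12 genes higher by 1, Cd24a, at 1.01 against 0.443, with a difference of 0.09 without block 2.

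Among genes outside the lists with the lowest differences, Cd74, an antigen presentation gene of immune cells, was at 0.112 against 0.759, and the sign turned to 0.48 when cells with the highest doublet scores were left out. Syn2, a synaptic vesicle gene, was at 0.0841 against 0.595. Tmod1, which caps actin filaments, was at 0.140 against 0.723. The markers of T and NK cells, B cells and fibroblasts were at 0 in all 29 cycling cells of the class, and the summed macrophage markers reached at most 8 UMIs in a cell, against 68 in matched cells. Endothelial markers were at 0 in 22 of 29. Pericyte markers were at 0 in 27 of 29, but 1 cycling cell had 3 of the 6 markers and 13 UMIs, where matched cells had at most 1 marker and 4 UMIs. The part of that cell in the differences was not tested. At least 3 of the 8 endocrine markers were seen in 28 of the 29 cells, and at least 3 of the 7 beta cell markers likewise in 28. The shallowest cell of the class, of block 1, had 889 non-hormone UMIs and a G2/M level of 236, the highest of the class. The 7 beta cell markers, all of them also in the list of mature beta cell genes, had differences under 0, with a median of -0.82, 2 lower by 1 and 5 lower in all blocks.

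In the other-hormone class, genes of the cell cycle lists and Cdkn1a were higher in the cycling cells. Here 13 cycling cells of the joint table were set against 120 matched cells, and 1035 of 10220 genes (10.1%) were higher by at least 1 and 1077 (10.5%) lower. The median over all genes was -0.03. Of 52 G2/M genes 50 were higher, of 42 S phase genes 37, and of 14 chromatin and cytoskeleton genes all 14. Stmn1 was at 16.6 (interval 14.7 to 18.6) against 0.0773, with 29.0, 4.95 and 21.9 in the cycling cells of blocks 1 to 3 and 7.59 in the single cell of replicate 1. Pbk had 44 UMIs in 11 of 13 cycling cells and none in matched cells. Block 2 was the lowest for both Stmn1 and Pbk.

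Cdkn1a, at chr17:29090976-29100727, was at 2.11 (interval 1.47 to 2.93) in cycling and 0.499 (0.390 to 0.629) in matched cells, a difference of 1.92. It was at 2.43 against 0.806, 2.27 against 0.254 and 1.32 against 0.396 in the blocks. It was seen in 11 of 13 cycling and 39 of 120 matched cells. The cycling side was higher in every block, while the single cycling cell of replicate 1 held 1 UMI, too few for a direction. Against 115 cells with the same leading hormone, a match chosen after the data were seen, 999 of 10361 genes (9.64%) were higher by 1 and 1199 (11.6%) lower, and Cdkn1a differed by 2.16. Cdkn2c was at 1.69 against 0.0703 and Cdkn2d at 1.56 against 0.225, while Cdkn1b differed by -0.11. Of 6 measured inhibitors 4 were higher by 1, with a median of 1.94. Of 12 p53 targets, Cdkn1a was the 1 gene higher by 1 and 3 were lower by 1.

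Ccnd2 did not have 1 direction in this class. It was at 9.15 against 11.8 over the joint table, at 2.24 against 12.8 in block 1, 15.2 against 10.6 in block 2 and 6.86 against 11.9 in block 3. G6pc2 and Slc2a2, mature beta cell genes that non-beta endocrine cells hold at low levels, were lower, on few UMIs. G6pc2 had 2 UMIs in cycling cells (level 0.120, interval 0.0146 to 0.435) against 0.885 in matched cells. Slc2a2 had 1 UMI (0.0602, interval 0.00152 to 0.335) against 0.541. The mature beta cell list did not go 1 way. Of its 23 genes 18 had a difference under 0 and 5 above 0, and 8 were lower in all 3 blocks. By 1, 6 were lower and none higher. The list median was -0.55, and -1.12, -0.07 and -0.82 in blocks 1 to 3. The 8 markers of all endocrine cells had a median of -0.36. In Fev, which marks progenitors of endocrine cells, 3 UMIs were counted (0.181, interval 0.0372 to 0.528) against 0.632. The progenitor and immaturity list as a whole did not share this direction. Of its 14 measured genes 8 had a difference above 0, 1 was higher by 1 and 2 were lower by 1. Its median was 0.36, and -0.06 with the same leading hormone. Differences in delta cell genes moved with the leading hormone. Rbp4, Arg1 and Cd24a differed by 0.66, 0.83 and 0.77 with any leading hormone, and by -0.06, 0.18 and 0.14 with the same leading hormone.

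A single Sst-led cycling cell of block 3 carried 108 UMIs of macrophage markers. All 7 measured macrophage markers were higher by 1 in this class, and among cycling cells this 1 cell held all UMIs of C1qb (36) and Csf1r (7). Without it, in a comparison added after the data were seen, the differences of these genes went from 3.85 and 2.68 to -1.74 and -0.64. The other 13 cells had at most 4 UMIs of these markers. T and NK cell and B cell markers were at 0 in all 14 cells.

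**Figure D5:**
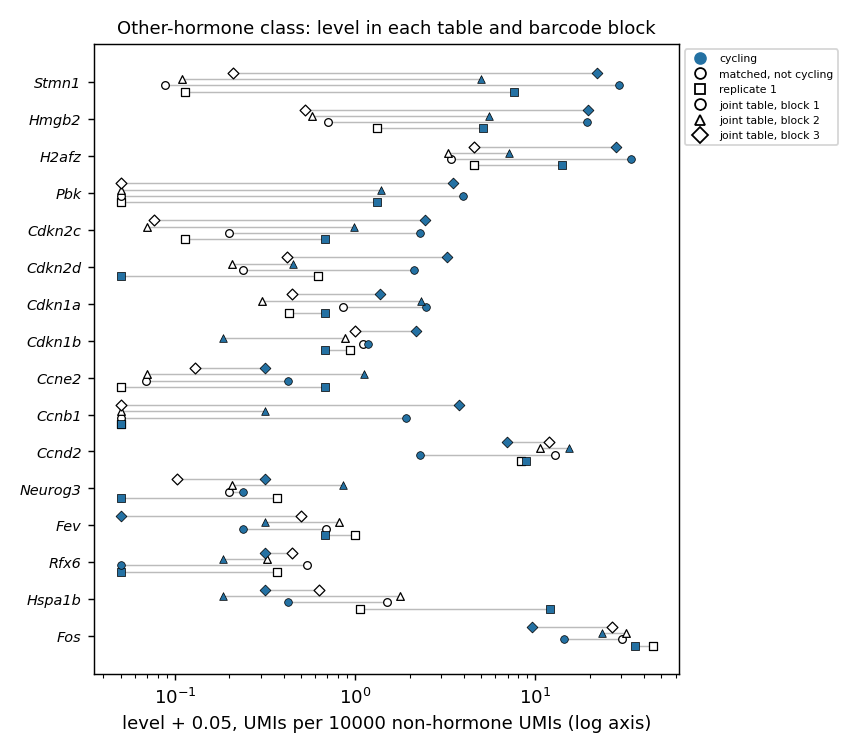
Levels of named genes in cycling and matched non-cycling cells of the other-hormone class, as UMIs per 10000 non-hormone UMIs plus 0.05 on a log axis, for each barcode block and for replicate 1. Cdkn1a lies higher in the cycling cells of every block, and Ccnd2 lies lower in blocks 1 and 3 and higher in block 2.

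Neurog3 and TdTomato were read for the question of whether cells with Neurog3 divide. Of 344 kept cells with a Neurog3 UMI, 7 were cycling, all in the joint table. Of all 12308 kept cells, 79 were cycling. Detection of Neurog3, like the rule, was more frequent in deeper cells, so these 2 counts do not compare like cells. Among non-cycling cells of the insulin class in the joint table, it was 1.75% at a median depth of 6843 UMIs. In the matched ones, at 11925 UMIs, it was 6.37%. In the insulin class Neurog3 was seen in 3 of 27 cycling cells of the joint table (11.1%, interval 2.35% to 29.2%) and in 16 of 251 matched cells (6.37%), each of the 3 with 1 UMI. Of these 3 cells, 2 were past both hormone limits, and without such cells the share was 4.35%. In the other-hormone class it was seen in 4 of 13 cycling cells (30.8%, interval 9.09% to 61.4%), 15 of 120 matched cells (12.5%) and 24 of 115 cells with the same leading hormone (20.9%). These 4 cells held 8 UMIs, 5 of them in a single Gcg-led cell of block 2. That cell had 4 of the 6 defining genes and 0 of the second set. Its G2/M level of 11.3 was the lowest of the class, beside a median of 8.32 in matched cells. Its S level was 23.2, beside a median of 5.30. Of Sst-led cells of both tables, 3 of 8 cycling and 134 of 594 non-cycling cells (22.6%) had a Neurog3 UMI, at median depths of 8966 and 4246. The intervals of these shares overlapped between cycling and matched cells in both classes. The Neurog3 level of the other-hormone class was 0.481 (interval 0.208 to 0.949) in cycling and 0.126 (0.075 to 0.2) in class-matched cells, without overlap. With the same leading hormone it was 0.193 (0.127 to 0.281) in matched cells, with overlap. In the insulin class the levels were 0.0841 (0.0173 to 0.246) and 0.0591 (0.035 to 0.0935). These differences rest on few UMIs and were not tested.

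Without hormone, Neurog3 was seen in 0 of 31 cycling cells at a median depth of 7161 UMIs. At 3 cells in place of 0 this allows up to 9.68% of cells with a UMI, and the exact interval reaches 11.2%, which does not limit the share that expresses the gene. It was seen in 0 of 1592 non-cycling cells of the joint table at a median depth of 2452 UMIs. TdTomato UMIs were seen in 12 of 27 cycling cells of the insulin class (44.4%) and 133 of 251 matched cells, and in 5 of 13 (38.5%) and 54 of 120 (45.0%) of the other-hormone class. They were also seen in 6 of 31 (19.4%) and 28 of 167 (16.8%) cells of the class without hormone. Cells of that class lie under the hormone limits but are not free of hormone RNA: its cycling cells had a median of 319 UMIs of Ins1 and Ins2 per 10000, and 24 of 36 had 200 or more. In replicate 1 the TdTomato row was above 0 in 0 of 8 cycling cells and in 2.07% of non-cycling cells of the insulin class. The tables thus do not measure it alike, and its share is not a labelling rate. In the joint table the row stands where the gene of the R26 locus would be listed. Whether its UMIs are RNA of the reporter or of that locus was not tested.

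The 36 cycling cells without hormone were mostly immune, stromal and vascular by their markers. B-like cells, with at least 3 B cell markers, gave 14 of 67 cells (20.9%, interval 11.9% to 32.6%), and after thinning 8 of 48 (16.7%). Fibroblast-like cells gave 8 of 118 (6.78%), macrophage-like cells 7 of 359 (1.95%) and endothelial-like cells 5 of 788 (0.635%, interval 0.206% to 1.47%). After thinning these were 2 of 89, 7 of 280 and 4 of 582. Of the 7 macrophage-like cycling cells, 1 of block 1 had only 5 UMIs of macrophage markers, where the median was 83. That cell was among the highest doublet scores, so its type is less sure. A duct-like cell and an unnamed cell made up the rest, and pericyte-like cells gave 0 of 178, which at 3 cells in place of 0 allows up to 1.69%, with an exact interval to 2.05%. The interval of B-like cells lay above that of macrophage-like and endothelial-like cells at both depths.

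Of the 14 B-like cycling cells, 10 had UMIs of Ptprc, the leukocyte common antigen, and 7, 3 and 4 came from blocks 1 to 3 with 0 from replicate 1. The 5 cycling cells of replicate 1 without hormone were 3 fibroblast-like, 1 macrophage-like and 1 endothelial-like. The 8 endocrine markers together had between 0 and 9 UMIs in the named cells.

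Against matched cells of the same type, 30 cells against 167 with median non-hormone depths of 7332 and 4373, 1119 of 9917 genes (11.3%) were higher by 1 and 1172 (11.8%) lower. Centring raised all differences by 0.118, and the median over all genes was 0.07. Of 53 G2/M genes 51 were higher, of 45 S phase genes 38, and of 14 chromatin genes all 14. Hist1h1b, a replication-dependent histone, had 131 UMIs in 21 cycling cells and none in matched cells. Cdkn2c and Cdkn2d were both at 0.725, against 0.120 and 0.130, and both were higher by 1. Of 7 measured inhibitors these were the 2 higher by 1, 1 was lower by 1 and 4 had a difference under 0, with a median of -0.63. Cdkn1a was at 0.544 (interval 0.322 to 0.859) against 0.948 (0.767 to 1.16), a difference of -0.63 that is under the limit of 1, with overlapping intervals. Ccnd2 was at 1.03 against 2.08, higher in block 1 (1.52 against 1.07) and lower in blocks 2 and 3. Types are mixed in this class and matched in number to unequal depth, so levels of genes that mark a type are not given.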

How the data were processed

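Single-cell RNA was measured in 3 samples of 1 group. The table of replicate 1 holds whole UMI counts per gene and cell as deposited, and the joint table of replicates 2 and 3 holds the natural log of 1 plus UMIs per 10000 as deposited by the authors. Whole UMIs were recovered from the joint table: 100% of 35558086 values above 0 were whole multiples within 0.001. Per the submitters' processing notes, Cell Ranger 3.2.0 was used for replicate 1 and 5.0.0 for replicates 2 and 3, with FastQC 0.11.8, cutadapt 2.5 and Seurat (4.0.0 for replicates 2 and 3), and mm10. The tables hold 16157 and 32285 genes, 15741 of them shared.

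Here Python 3.11.15, scanpy 1.11.5, scipy 1.17.1, numpy 2.4.6 and pandas 2.3.3 were used. Matched cells are the 10 nearest in non-hormone UMIs per cycling cell, of the same block and class, and without hormone also of the same type, which left 1 unnamed cell out. Where a block held under 10 cells of the type, or of the leading hormone where that was matched, cells of any block of the same table were taken. Block values of those comparisons may therefore include cells matched to a cycling cell of another block. Types rest on at least 3 detected markers and the most of any list, the acinar list aside, since acinar RNA was in nearly all cells. That choice followed a look at the data. Positions are from GENCODE on GRCm38.

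The planned test across tables needed 10 cells per class in each table and was not run. Block and replicate 1 values were left uncentred, because in sums over few cells most genes are at 0. The comparison was tested on simulated data. Doublets were scored with Scrublet and kept. Its automatic threshold called 9 cells in replicate 1 and 3, 33 and 0 in the blocks, so the highest scores, 0.8% per 1000 cells, were left out as an alternative.

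Named genes are the defining genes, Neurog3, TdTomato, the hormones, up to 5 highest and lowest per list with a level of at least 0.5, the 10 highest and lowest outside the lists with 1 direction in all blocks, and cell type markers. Members and lists were chosen with earlier results of these data known.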

Additional observations from a re-analysis of the deposited data

How the results depend on the processing

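Counts of cycling cells ranged from 17 to 27 (insulin), 9 to 13 (other hormone) and 22 to 31 (no hormone) when replicate 1 or a barcode block was left out. Thinning to 1000 non-hormone UMIs gave 0.0995% for the insulin class and 0.528% without hormone, 2000 UMIs of all genes gave 0.0625% for the insulin class, 4000 gave 5.23% without hormone, and no thinning gave 0.358% and 0.574% for the hormone classes. Counts of genes past a log2 difference of 1 depended on the pseudocount: at 0.5 they were 157 higher and 11 lower (insulin), 174 and 24 (other hormone) and 165 and 165 (no hormone), and at 0.01 the insulin class had 846 lower. With all UMIs as the total the insulin class had 346 higher and 130 lower, and with cells past both limits left out 997 lower. Leaving out a block gave 866 to 1036 lower in the insulin class, and 905 to 2414 higher and 1286 to 1870 lower in the other-hormone class, whose higher genes numbered 2018 with no filter. All non-members gave 1761 lower without hormone. The causes were not tested. All non-members gave shares of 1.75% for Neurog3 and 38.0% for TdTomato in the insulin class and 29.6% for TdTomato in the other-hormone class, and the same leading hormone, chosen after seeing the data, 20.9% for Neurog3. With all UMIs as the total the phase medians of the insulin class were 10.9 (S) and 36.2 (G2/M). Cd74 turned to 0.48 without the highest doublet scores. In the other-hormone class C1qb and Csf1r turned to -1.99 and -0.84 with at least 4 defining genes, to -1.94 and -0.72 without block 3 (-1.94 to 6.54 and -0.72 to 4.25 over the blocks left out), and to -1.74 and -0.64 without the cell with macrophage RNA, each of which leaves that cell out. Of named differences past 1, no other turned sign under the alternatives run.

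No paired analysis was possible because replicates 2 and 3 share a table with no map from cells to samples and replicate 1 holds under 10 cycling cells per class. For that reason limma, edgeR and DESeq2 and the fit without the block were not run. Leaving out replicate 1 does not alter gene differences, which use the joint table. Depth limits Neurog3 and genes of a few UMIs.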
